A study of Mus musculus with 2 samples.

Results

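The Schwann and glial cells of salivary gland organoid stroma were 2 small groups of cells, cluster 10 of a control library and cluster 16 of a library with FGF2. The members were taken by these cluster numbers, which the submitters assigned. Their tables held 1604 genes for the control cluster and 1073 for the FGF2 cluster, 2159 different genes of the 5154 listed in either library's table. The control cluster made up 1.15% of the control cells and the FGF2 cluster 0.307% of the FGF2 cells. If all 5023 and 10107 captured cells were clustered, that is 58 and 31 cells, and 1 cell is 1.72% or 3.23% of its cluster.

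The organoids, small aggregates of tissue grown in culture, held stroma of salivary glands of outbred CD-1 mice. The glands were from embryonic day 16, and the age label adds 7 in an unstated unit. FGF2 is a fibroblast growth factor, with no dose or time stated in the labels. The control and the FGF2 group had 1 library each, so differences between them were described and not tested. The labels do not state how many animals or glands were pooled.

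Schwann cells are the glia of peripheral nerves. They arise from the neural crest through Schwann cell precursors, which travel along growing nerves and depend on neuregulin signals from axons received by ERBB2 and ERBB3. They go on to wrap large axons in myelin or to hold bundles of thin axons as non-myelinating Remak cells, and after injury they turn into repair cells that express JUN and secrete trophic factors. Salivary glands receive parasympathetic and sympathetic nerves, and parasympathetic ganglion neurons of the head arise from Schwann cell precursors that travel with the nerves.

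All shares below are the percentage of cells in which a gene was detected, as the authors' deposited table gives them for a cluster and for the other cells of the same library. The log ratio is the natural log of the average in the cluster over that in the other cells. A gene was listed only with a log ratio of at least 0.25 in size, a p-value of the authors under 0.01 and detection in at least 25.1% of either side's cells. An unlisted gene may still be expressed. The clusters were formed from the expression of these same cells, so a difference from the other cells describes a cluster and is not a test of it. The tables hold no barcodes or counts, so the depth per cell and any barcodes shared between libraries are unknown and no interval was computed. The other cells were mostly stromal in both libraries. They included control cluster 4, 10.6% of control cells, whose listed genes had a median share of 10.9% against 84.8%. FGF2 cluster 10, 3.51% of FGF2 cells, had 14.4% against 70.8%. The part of such clusters in the shares of the other cells was not tested.

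The control cluster bore the 4 markers given for these cells, Gap43, Cdh19, Apod and Foxd3, and the FGF2 cluster bore 3 of the 4. Cdh19, a cadherin of Schwann cell precursors, was detected in 93.1% of the control cluster and 0.6% of the other control cells. In the FGF2 library, Cdh19 was detected in 61.3% of the cluster and 0.0% of the other cells. Foxd3, a transcription factor of the neural crest, was at 93.1% in the control cluster against 0.4% in the other cells. Foxd3 was at 32.3% in the FGF2 cluster against 0.0%. Both genes therefore stood far apart from the rest of each library, Foxd3 in a smaller share of the FGF2 cluster. Apod, a lipid carrier of the lipocalin family that Schwann cells express, was at 72.4% of the control cluster and 22.1% of the other cells. Apod was at 71.0% of the FGF2 cluster and 9.4% of the other cells, and had the highest log ratio there (2.73 in the authors' deposited table). Gap43, a growth cone protein that immature Schwann cells also make, led the control cluster at 96.6% against 15.6% and was listed for no FGF2 cluster.

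The sequence upstream of the start is shown for the given markers with an entry in the RefSeq promoter table (GRCm38.p6), Apod, with a like share in both clusters, and Foxd3, with unlike shares. Each is the 250 bases before the start site, 5′ to 3′ on the gene's strand. Apod lies at chr16:31314809-31315058 on the minus strand and Foxd3 at chr4:99656049-99656298 on the plus strand. Capitals mark ACAAAG or its reverse complement CTTTGT, letters that SOX family factors such as SOX10 can bind, a motif chosen after the values were seen.
Apod: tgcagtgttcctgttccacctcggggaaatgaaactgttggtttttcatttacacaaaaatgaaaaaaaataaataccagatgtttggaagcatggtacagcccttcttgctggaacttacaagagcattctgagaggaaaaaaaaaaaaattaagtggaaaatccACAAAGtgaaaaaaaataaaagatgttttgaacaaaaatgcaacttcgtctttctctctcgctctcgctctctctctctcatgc
Foxd3: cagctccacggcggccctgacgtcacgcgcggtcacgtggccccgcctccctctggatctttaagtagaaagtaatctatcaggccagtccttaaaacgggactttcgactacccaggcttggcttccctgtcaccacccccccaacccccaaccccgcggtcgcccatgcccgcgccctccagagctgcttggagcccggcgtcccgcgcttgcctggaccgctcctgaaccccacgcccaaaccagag
The Apod sequence held 1 match, whose first base lay at -84 from the start, and the Foxd3 sequence held 0. A match is a description of letters and not of binding. Of all 27025 genes in the table, 18.6% held the motif within these 250 bases. Among the genes listed higher in both clusters, 95 of 134 were matched and 18 of them held it (18.9%), which is near the share of all genes. Of the 967 genes higher in the control cluster 733 were matched and 15.8% held it. Of the 15 highest in both clusters 9 were matched and 4 held it (44.4%), and of the genes lower in both 260 were matched and 13.1% held it.

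Against the other cells, 967 genes were listed higher in the control cluster, 21.9% of the 4419 genes in that table, and 637 lower (14.4%). For the FGF2 cluster 163 were listed higher, 5.33% of 3058 genes, and 910 lower (29.8%). The listed genes of the control cluster were detected in a median of 56.9% of its cells and 59.0% of the other cells. In the FGF2 library these medians were 16.1% and 62.7%. These medians mix directions, as 910 of 1073 genes were lower in the FGF2 cluster and 637 of 1604 in the control cluster. For higher genes the medians were 62.1% of the control cluster and 54.8% of the FGF2 cluster, and for lower genes 27.6% and 12.9%. Of the FGF2 cluster's 163 higher genes, 33 (20.2%) had a higher average but a smaller share than the other cells. In the control cluster 84 (8.69%) did. The reverse, a lower average but a larger share, held for 102 of the control cluster's 637 lower genes. In the FGF2 cluster it held for 17 of 910. In 103 of the FGF2 cluster's lower genes the share was 0, against 8 in the control cluster.

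Of the 30 genes of Schwann cell precursors and immature Schwann cells, 24 were in the control table, and 21 of these were listed higher in the cluster and 0 lower. In the FGF2 library 15 were listed, with 12 higher and 1 lower. A gene high in the cluster alone enters the table only through it. Counts among listed genes, here and below, therefore describe a list and do not test it. Sox10, the transcription factor that specifies peripheral glia, was at 94.8% of the control cluster against 0.9%, and at 48.4% of the FGF2 cluster against 1.0%. Ngfr, the low-affinity neurotrophin receptor p75, was at 89.7% against 0.7% and at 58.1% against 0.6%. Both genes marked the 2 clusters, each with the smaller share in the FGF2 cluster. Sox10 was also listed higher in control cluster 13 (30.8%), led by Igfbp5 and Krt14, and in FGF2 cluster 11 (25.4%), led by Chil1 and Fxyd3, both with epithelial genes. Ngfr, Cdh19, Foxd3, Sox2 and Kcna1 were listed for no other cluster of either library.

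**Figure D1:**
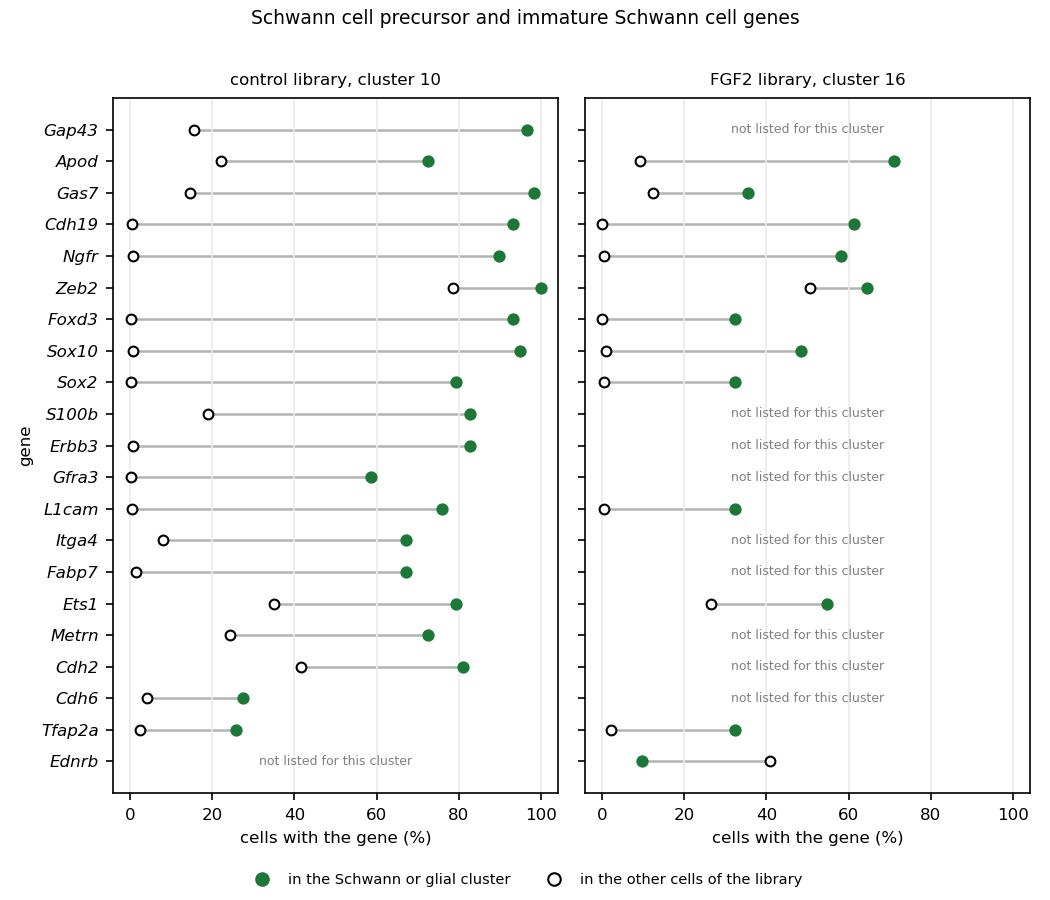
Share of cells (x axis, percent) with each listed gene of the Schwann cell precursor list (y axis). Filled points are the cluster and open points the other cells, for the control library (left) and the FGF2 library (right). All genes drawn for the control cluster sit to the right of the other cells, and in the FGF2 cluster Ednrb alone sits to the left. Of the genes listed for a cluster, 1 is not drawn.

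Other genes of the immature stage set the lists of the clusters apart. S100b, a calcium-binding protein of Schwann cells, was at 82.8% of the control cluster against 19.1% of the other cells. In the FGF2 library S100b was not listed for cluster 16 but was listed higher in stromal cluster 7, at 75.0% against 36.8% of the other cells. Fabp7, a fatty acid binding protein of glial progenitors, was at 67.2% of the control cluster against 1.4% and was listed for no FGF2 cluster. Sox2, which immature Schwann cells express, was at 79.3% of the control cluster and 32.3% of the FGF2 cluster, against 0.4% and 0.5% elsewhere. Tfap2a, a neural crest transcription factor, was at 25.9% and 32.3%, against 2.6% and 2.3%. Ednrb, the endothelin receptor of neural crest cells, was the gene listed lower in the FGF2 cluster, at 9.7% against 40.8%.

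Of the neuregulin ligands and ERBB receptors, the control cluster had Erbb3 and Erbb2 listed higher and Egfr lower, of 4 listed in that library. Erbb3, the neuregulin receptor of the Schwann lineage, was detected in 82.8% of the control cluster against 0.7% of the other cells. Erbb2, its signalling partner, was at 31.0% against 20.5%. Egfr, the receptor of epidermal growth factor, was at 3.4% against 42.3%. The FGF2 table listed 0 of the 8 genes for any cluster.

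Transcription factors of the neural crest and glial lineage were listed higher for 11 genes in the control cluster, of 27 in that library, and lower for 5. In the FGF2 cluster 9 were higher and 5 lower, of 25. The shares over all genes were 21.9% higher and 14.4% lower in the control cluster, and 5.33% and 29.8% in the FGF2 cluster. The 5 of 25 lower in the FGF2 cluster are thus no larger a part than that of all genes. Zfp536, a zinc finger factor, was at 72.4% of the control cluster and 41.9% of the FGF2 cluster, against 0.5% and 0.1%. Sox6, a SOX factor, was at 67.2% of the control cluster against 0.3%. Insc, an adaptor of cell polarity that stood in the same list, was at 72.4% and 41.9%, against 4.1% and 0.1%. Among the lower factors, Id3, an inhibitor of basic helix-loop-helix factors, was at 75.9% against 85.6% in the control library and 41.9% against 91.6% in the FGF2 library. Nr2f2, a nuclear receptor of mesenchyme, was at 55.2% against 82.0% and at 25.8% against 80.5%. Id2, Id3 and Nr2f2 were listed lower in both clusters.

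Genes of myelin were listed higher for 9 of the 13 in the control table and 0 lower, and in the FGF2 cluster for 4 of 9, with 1 lower. The members shared by both clusters included Cnp, Cd81 and Cryab. Cd81 was widespread, at 100% of the control cluster against 89.3% and at 96.8% of the FGF2 cluster against 96.5%. Cryab was at 94.8% against 55.0% and at 96.8% against 65.1%. It was also listed higher in FGF2 cluster 4, led by Acta2, at 95.9%. Cnp, an enzyme of myelin membranes, was at 70.7% of the control cluster against 15.7% and at 25.8% of the FGF2 cluster against 11.0%. Mbp, the myelin basic protein, was at 25.9% of the control cluster against 5.6%, and Mal, a proteolipid of myelin, was at 25.9% against 0.4%. Mbp and Mal stood close to the lower bound of listing. Adgrg6, a receptor needed for myelination, was at 65.5% of the control cluster against 5.2%. It was also listed higher in control cluster 13, with epithelial genes, at 53.8%.

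Of 17 genes of non-myelinating Schwann cells and other glia, 11 were in the control table, 9 of them higher. The FGF2 table held 7, with 5 higher and Slc1a3, a glutamate transporter, lower (0.0% against 39.1%). Cadm1, an adhesion molecule of the nectin-like family, was at 100% of the control cluster against 2.4%, and at 64.5% of the FGF2 cluster against 5.8%. Csmd1, a large membrane protein, was at 79.3% and 29.0%, against 1.1% and 0.5%. Scn7a, a sodium channel of non-myelinating Schwann cells, was at 43.1% of the control cluster against 12.7%. Kcna1, a voltage-gated potassium channel, was at 86.2% of the control cluster against 0.7% and at 83.9% of the FGF2 cluster against 1.0%. The channel Kcna1 therefore had nearly the same share in both clusters, 2.3 points apart. Its relatives Kcna2 and Kcna6 were at 43.1% and 44.8% of the control cluster, against 0.1% and 1.4%. The channel and transporter list held 22 genes. In the control cluster 8 of 9 listed genes were higher, and in the FGF2 cluster Kcna1 was higher and Slc1a3 lower of 3.

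Of 20 genes of the repair Schwann cell, 15 were in the control table, 12 of them higher. The FGF2 table held 11, with 7 higher and 2 lower, Tnc and Ccl2. Atf3, a transcription factor induced by nerve injury and other stress, was at 67.2% of the control cluster against 6.9%, and at 64.5% of the FGF2 cluster against 1.9%. It was also listed higher in control cluster 11, with macrophage genes, at 30.2%. Jun, the factor that drives the repair state, was at 96.6% against 67.1% and at 90.3% against 86.7%. In the authors' deposited table the log ratio of Jun was 1.65 in the control cluster and 1.30 in the FGF2 cluster. Runx2, a transcription factor of bone that repair cells also express, was at 55.2% against 35.5% and at 61.3% against 32.1%. Btc, an EGF receptor ligand, was at 37.9% against 1.6% and at 54.8% against 11.0%. These 4 genes had shares in the FGF2 cluster within 7 points of the control cluster or, for Btc, 16.9 points above it. The rest of the list was not alike. Of its other genes listed for both clusters, Gdnf differed by -2.7 points, but Sox2 by -47, Tnc by -41.4 and Ngfr by -31.6. Immediate early genes were listed in both directions. Of 14 in the control library 4 were higher and 5 lower, and of 16 in the FGF2 library 4 were higher and 1 lower. Klf6 was at 91.4% of the control cluster and 77.4% of the FGF2 cluster, and Egr1, listed lower in the control cluster, was at 17.2% against 71.4%.

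**Figure D2:**
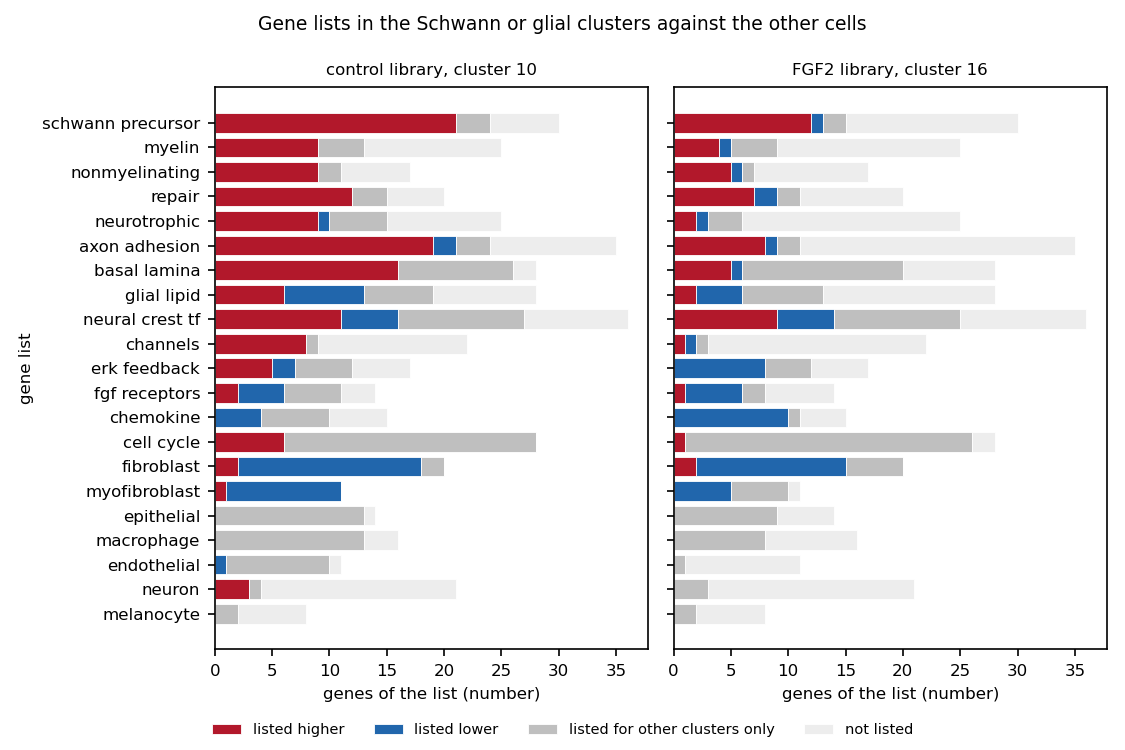
Number of genes of each list (x axis, 1 bar per list on the y axis) that were listed higher or lower in the Schwann or glial cluster, listed for other clusters only, or not listed, in the control table (left) and the FGF2 table (right). The Schwann precursor bar holds 21 higher genes on the left and 12 on the right, and the chemokine bar holds 4 lower on the left and 10 on the right.

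Of the 25 neurotrophic factors and receptors, 15 were in the control table, where 9 were higher and Mdk, the growth factor midkine, was lower. In the FGF2 library Gdnf and Ngfr were higher and Mdk lower, of 6. Gdnf, a trophic factor for neurons, was at 41.4% of the control cluster against 2.0%, and at 38.7% of the FGF2 cluster against 1.0%. Artn, the related factor artemin, was at 60.3% of the control cluster against 1.1%. The receptors of this family, Gfra1, Gfra3 and Gfra2, were at 67.2%, 58.6% and 43.1% of the control cluster, against 3.1%, 0.3% and 9.2%. Neither Artn nor a Gfra gene was listed higher for the FGF2 cluster. Fgf5, a fibroblast growth factor, was at 63.8% of the control cluster and 35.5% of the FGF2 cluster, against 0.5% and 0.1%. Mdk was at 19.0% against 84.7% and at 19.4% against 87.8%.

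Adhesion and guidance molecules of axon and glia contact were higher for 19 of the 24 in the control table, with 2 lower, and for 8 of the 11 in the FGF2 table, with 1 lower. Chl1, a close relative of the adhesion molecule L1, was at 100% of the control cluster against 4.0%, and at 32.3% of the FGF2 cluster against 0.5%. L1cam itself was at 75.9% and 32.3%, against 0.5% in both libraries. Nrcam, which helps to gather sodium channels at nodes of Ranvier, was at 77.6% and 51.6%, against 4.6% and 1.9%. Lgi4, which Schwann cells secrete and need for myelination, was at 94.8% and 32.3%, against 2.6% and 1.1%. These adhesion genes marked both clusters and had smaller shares in the FGF2 cluster. Epha5, an ephrin receptor, was at 69.0% and 29.0%, against 0.9% and 1.4%. The semaphorins Sema3b and Sema3e were at 72.4% and 63.8% of the control cluster, against 5.8% and 2.1%. Cdh11, a cadherin of mesenchyme, was lower in both clusters, at 15.5% against 86.9% and 19.4% against 79.9%.

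Schwann cells lay down a basal lamina and hold it with integrins and dystroglycan. Of 28 genes of this group, 26 were in the control table, with 16 higher and 0 lower. The FGF2 table held 20, with 5 higher and 1 lower. Itga6, a laminin receptor subunit, was at 91.4% of the control cluster against 18.8%. Itga7, another laminin receptor subunit, was at 69.0% and 38.7%, against 2.1% and 2.6%. Dag1, which encodes dystroglycan, was at 96.6% against 72.1% and at 51.6% against 43.6%. These genes were not particular to the Schwann clusters. Itga6 was among the leading genes of control cluster 13, with epithelial genes, and Dag1 was listed higher there at 80.8%. Dag1 was also listed higher in FGF2 cluster 11, at 44.3%. Hspg2, the basal lamina proteoglycan perlecan, was at 96.6% against 67.9% and at 64.5% against 59.1%. Col18a1, a basal lamina collagen, was at 100% against 53.8%, whereas in the FGF2 library its share was 71.0% against 74.9% with a log ratio of 0.62 in the authors' deposited table. Lamb1, a laminin chain, was the lower gene of the FGF2 cluster, at 22.6% against 81.4%.

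Lipid genes were mixed. Of 19 in the control library 6 were higher and 7 lower, and of 13 in the FGF2 library 2 were higher and 4 lower. Over all genes, 21.9% were higher and 14.4% lower in the control cluster, against 5.33% and 29.8% in the FGF2 cluster. The 4 of 13 lower in the FGF2 cluster are thus near the share of all genes. The higher genes of both clusters were Apod and Apoe. Apoe, the apolipoprotein that carries cholesterol between glia and neurons, was at 93.1% against 57.2% and at 83.9% against 72.9%. The lower ones included enzymes of cholesterol synthesis. Hmgcs1, an early enzyme of that pathway, was at 27.6% of the control cluster against 59.1%. Cyp51, a later one, was at 12.1% against 62.2% and at 9.7% against 48.1%.

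Of the genes of FGF and ERK feedback, Ccnd1 and Spred1 were listed higher in the control cluster and lower in the FGF2 cluster, and Spry4 was listed lower in both. In the control cluster 5 of the 12 in the table were higher (Spry2, Spred1, Dusp6, Ccnd1 and Phlda1) and 2 lower. In the FGF2 cluster 0 of 12 were higher and 8 lower. Of all genes in the tables, 5.33% were higher and 29.8% lower in the FGF2 cluster, against 21.9% and 14.4% in the control cluster. The lists as a whole thus lean the same way. Ccnd1, the cyclin D1 gene, was at 79.3% of the control cluster against 53.1%, and at 12.9% of the FGF2 cluster against 67.3%. Spred1, an inhibitor of RAS signalling, was at 72.4% against 70.2% and at 16.1% against 79.5%. In the authors' deposited table the control log ratio of Spred1 was 0.252, at the limit of listing, and that of Ccnd1 was 1.09. The ETS factors Etv1 and Etv4 were at 12.9% and 3.2% of the FGF2 cluster, against 73.3% and 52.2% of the other FGF2 cells. Fgfr1, an FGF receptor, was lower in both clusters, at 24.1% against 76.4% and 16.1% against 71.4%. Gpc1, a heparan sulphate proteoglycan, was higher in both, at 84.5% against 29.3% and 61.3% against 34.6%. Of 14 receptors and co-receptors, 2 were higher and 4 lower of 11 in the control table, and 1 higher and 5 lower of 8 in the FGF2 table.

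The chemokines and cytokines listed for either cluster were lower there. Of 10 in the control library 4 were lower and 0 higher, and of 11 in the FGF2 library 10 were lower and 0 higher. Of all genes in the tables, 14.4% were lower in the control cluster and 29.8% in the FGF2 cluster. Il11, a cytokine, was at 19.4% of the FGF2 cluster against 77.7% of the other cells. Ccl2 and Ccl7, which attract monocytes, were at 19.4% against 69.4% and at 12.9% against 79.0% in the FGF2 library. Ccl7 was at 12.1% of the control cluster against 46.8%. Of 28 cell cycle genes in the control library, 6 were listed higher in the cluster, 0 lower and 22 for other clusters only, and this share of higher genes was near the 21.9% of all genes there. Stmn1, which is also a tubulin regulator of growing cells, was at 63.8% against 49.2%, and Prc1, a cytokinesis protein, at 39.7% against 15.4%. In the FGF2 cluster Tubb5, a tubulin, was higher of 26.

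Across the 2 libraries, 518 genes were listed for both clusters, 32.3% of the control cluster's list and 48.3% of the FGF2 cluster's. Of these, 134 were higher in both clusters, 13.9% of the control cluster's higher genes and 82.2% of the FGF2 cluster's. A further 360 were lower in both, 56.5% and 39.6% of the lower genes. These 360 included many ribosomal protein genes with like shares on both sides. Rpl13, for example, was at 100% against 99.5% and at 100% against 99.6%. By the smaller of the 2 log ratios the authors deposited, Apod, Apoe, Atf3 and Kcna1 were among the first of the 134 higher genes. B3galt2, a galactosyltransferase, was at 82.8% of the control cluster and 54.8% of the FGF2 cluster, against 2.3% and 0.7%. Fxyd1, a regulator of the sodium pump, was at 100% against 51.5% and at 87.1% against 43.1%. Of the 810 genes higher in the control cluster but unlisted for the FGF2 cluster, 315 were listed for another FGF2 cluster and 495 for none. In the authors' integrated table, whose differences are of batch-integrated values, cluster 12 bore the 4 given markers. Of the 134 genes, 68 were in that table and 68 were higher in its cluster 12. That table rests on the same libraries, so it is no separate evidence.

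**Figure D3:**
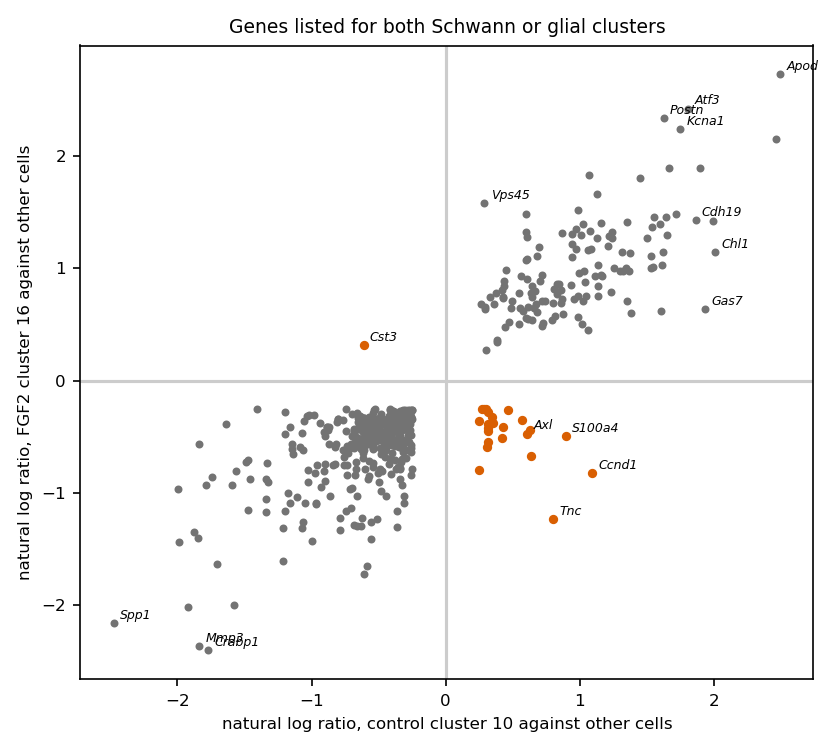
Natural log ratio against the other cells in the control cluster (x axis) and in the FGF2 cluster (y axis) for the 518 genes listed for both, 1 point per gene, with genes of opposite direction in orange. There are 134 points at the upper right, 360 at the lower left, 23 at the lower right and 1, Cst3, at the upper left.

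The share of cells was compared between the clusters by a size rule of 25 percentage points, without a test. Of the 518 genes, 6 (1.16%) had a larger share in the FGF2 cluster and 131 (25.3%) a smaller one. The median difference, FGF2 minus control, was -9.7 points in the clusters and 0 points in the other cells. Among the 134 genes higher in both, 56 were smaller and 0 larger by the rule, with medians of 81.0% and 53.2%. The other cells had medians of 32.3% and 20.2% for these genes. Of the 518 genes, 430 had a smaller share in the FGF2 cluster and 71 a larger one, but 381 differed by less than 25 points. Large differences were also found outside the glial genes. Gm10260, a predicted gene, was at 89.7% and 12.9% of the clusters, and Tpm1, a tropomyosin, at 91.4% and 25.8%. A smaller share in the FGF2 cluster was thus present over most of the 518 genes, and the part of depth per cell in it was not tested. Mitochondrially encoded genes were higher for 9 of 13 in the control cluster and 0 lower, and lower for 6 of 11 in the FGF2 cluster and 0 higher. Of all genes in the tables, 21.9% were higher in the control cluster and 29.8% lower in the FGF2 cluster. mt-Nd3, a subunit of respiratory complex I, was at 100% of the control cluster against 88.7%, and at 48.4% of the FGF2 cluster against 89.7%.

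Among the glial genes with the largest differences in share were Chl1, Gas7, Lgi4 and Foxd3. Gas7, a growth arrest protein that shapes neurites, was at 98.3% of the control cluster and 35.5% of the FGF2 cluster, against 14.6% and 12.5%. Tenm3, a teneurin of axon guidance, was at 89.7% and 29.0%, but its share in the other cells was 55.8% and 9.8%. Foxd3 differed by -60.8 points in the clusters and by -0.4 in the other cells. Of the 134 genes higher in both clusters, 7 had the larger share in the FGF2 cluster, by 2.0 to 16.9 points. They were Btc, Cryab, Ppp1r1a, Runx2, Tfap2a, Tmem158 and Vps45, named after their values were seen. Apod, Kcna1, Atf3 and Gdnf differed by less than 3 points, which is less than 1 cell of the FGF2 cluster if all captured cells were clustered.

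**Figure D4:**
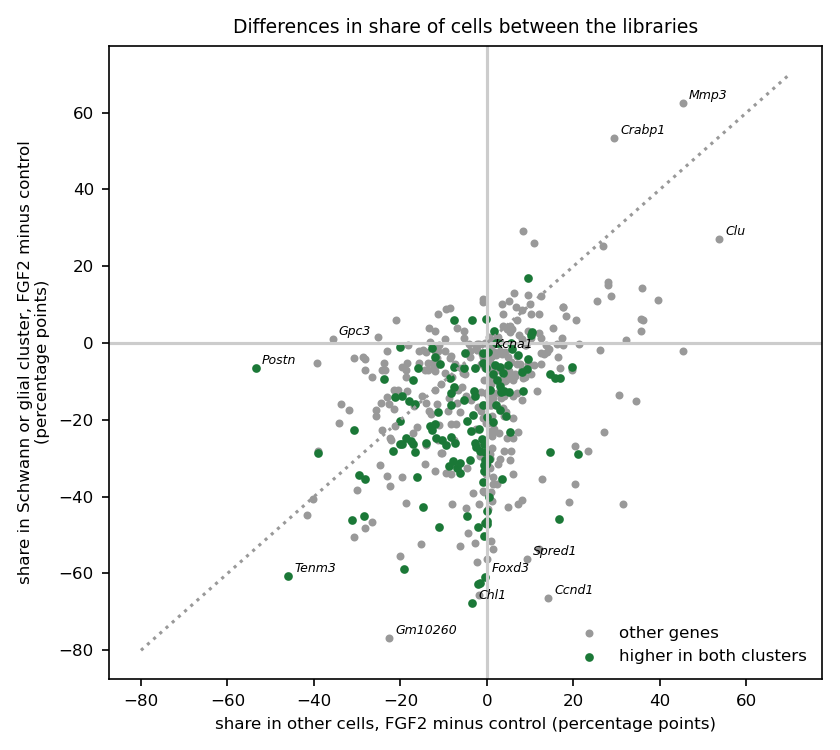
Difference in share of cells, FGF2 minus control, in the other cells (x axis, percentage points) and in the Schwann or glial clusters (y axis, percentage points) for the 518 genes listed for both, with the 134 genes higher in both in green and a dotted line of equal differences. Foxd3 and Chl1 lie near 0 on the x axis and below -60 on the y axis, Postn lies at -53.5 and -6.5, and Mmp3 at 45.3 and 62.5.

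Postn, the matrix protein periostin, which Schwann cells and fibroblasts make, had the largest difference in favour of the FGF2 cluster once that of the other cells was taken off, 47 points. Larger ones in the other direction included Ccnd1 at -80.6 and Ltbp1 at -73.3 points. Postn was at 100% of the control cluster and 93.5% of the FGF2 cluster, 6.5 points lower. In the other cells it was at 70.6% and 17.1%, 53.5 points lower. Its log ratio in the authors' deposited table was 1.63 in the control cluster and 2.34 in the FGF2 cluster. FGF2 cluster 11 was the other FGF2 cluster listed higher for it, at 58.4%. Adamtsl1, a secreted protein of the ADAMTS-like family, was at 65.5% and 51.6% of the clusters, against 20.4% and 0.7%. Adamts5, a protease of proteoglycans, was listed for the FGF2 cluster alone of the pair, at 51.6% against 14.1%. In the control library it was listed for other clusters, up to 98.1% in cluster 0. These 3 genes were singled out after their values were seen. The 28 genes higher in the FGF2 cluster and unlisted for the control cluster included Ecm1, an extracellular matrix protein (77.4% against 54.4%), Gadd45b, a stress-induced gene (54.8% against 24%), and Matn4, a matrilin of the matrix (25.8% against 1.9%).

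The 6 genes with the larger share in the FGF2 cluster were Mmp3, Crabp1, Spp1, Clu, Ly6e and Ptgs1, and all 6 were listed lower than in the other cells in both clusters. Mmp3, the matrix protease stromelysin, was at 31.0% of the control cluster against 53.6% of the other control cells, and at 93.5% of the FGF2 cluster against 98.9%. Crabp1, a retinoic acid binding protein of fibroblasts, was at 24.1% against 69.6% and at 77.4% against 99.0%. Spp1, the secreted protein osteopontin, was at 70.7% against 91.6% and at 100% against 100%. Other non-stromal clusters of the FGF2 library held these genes in like shares. Mmp3 was at 100% of cluster 14, led by the neutrophil genes S100a9 and S100a8, and at 81.2% of cluster 15, led by mast cell proteases. Crabp1 was at 95.4% and 82.8% there. Free RNA in droplets can give such shares, and its part was not tested.

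Genes of stromal fibroblasts were mostly lower in both clusters. Of 20 such genes 16 were lower and 2 higher in the control cluster, and 13 lower and 2 higher in the FGF2 cluster, the 2 being Postn and Mmp2. Pdgfra, the growth factor receptor that marks fibroblasts, was at 6.9% of the control cluster against 79.1%, and at 9.7% of the FGF2 cluster against 84.4%. Lum, a proteoglycan of fibroblasts, was at 3.4% against 51.7% and at 12.9% against 69.2%. Col1a1, the main fibrillar collagen, was at 84.5% against 92.4% and at 29.0% against 72.2%. For comparison, Col1a1 was at 33.1% of control cluster 9 (epithelial genes) and 66.0% of control cluster 11 (macrophage genes). Pdgfra and Lum were thus rare in both clusters, whereas Col1a1 was detected in most cells of the control cluster. Col1a2 and Col3a1, listed lower in the control cluster by their average, had larger shares there. They were at 94.8% against 93.2% and at 96.6% against 92.4%. Of 11 contractile genes 10 were lower and 1 higher in the control cluster, and 5 of 10 lower in the FGF2 cluster. Acta2, smooth muscle actin, was at 62.1% of the control cluster against 90.2%, and was not listed for the FGF2 cluster. The part of RNA from stromal cells in these values was not tested.

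**Figure D5:**
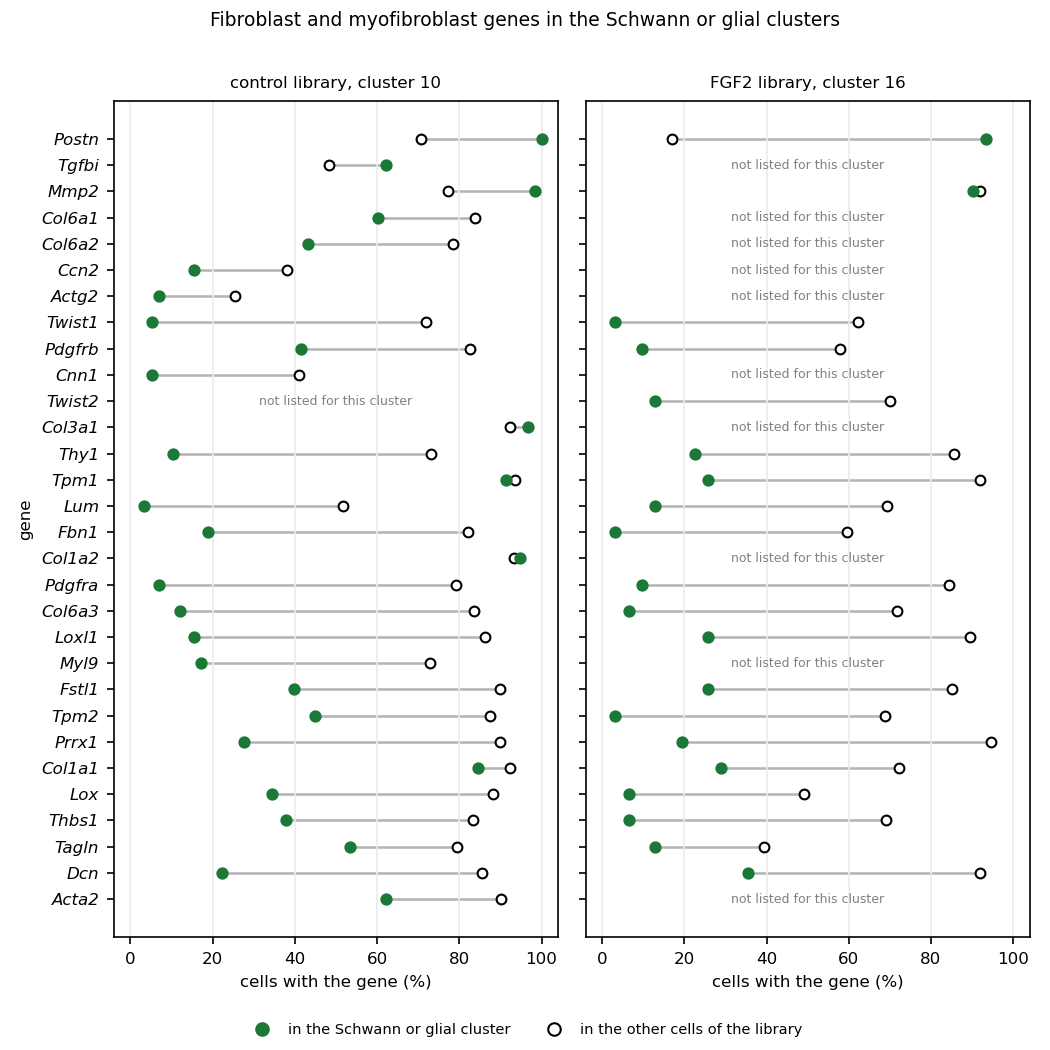
Share of cells (x axis, percent) with each listed fibroblast or myofibroblast gene (y axis) in the Schwann or glial cluster (filled points) and in the other cells (open points), control library at the left and FGF2 library at the right. Most filled points lie to the left of the open points, and Postn lies to the right in both libraries.

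Markers of other cell types were nearly missing from the lists of both clusters. Of the epithelial, macrophage, mast cell, melanocyte and erythroid lists, 0 genes were listed for either cluster. Some of these lists had few genes listed for any cluster. They were 0 of 7 erythroid and 2 of 8 melanocyte genes in each library. Mast cell genes were 1 of 9 in the control library and 9 of 9 in the FGF2 library. An unlisted gene may be as rare in the other cells, so these counts cannot show that such cells were absent. Of 11 endothelial genes Fabp4 was lower in the control cluster (12.1% against 32.5%), and of 7 pericyte genes Mcam, which repair Schwann cells also express, was higher there (53.4% against 12.6%). Of 21 neuron genes, 4 were in the control table and 3 were higher in the control cluster. Tubb3, a neuronal tubulin, was at 50% against 23.0%, Uchl1, a ubiquitin hydrolase of neurons, at 41.4% against 5.5%, and Hand2, a factor of autonomic neurons, at 36.2% against 27.6%. Tubb3 was also at 65.5% of control cluster 5, led by Acta2. The neuron genes Elavl3, Elavl4, Phox2a and Prph were listed for no cluster, and 0 neuron genes were listed for the FGF2 cluster.

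Genes listed in opposite directions numbered 24, of the 518 listed for both clusters. In 23 the control cluster was higher and the FGF2 cluster lower than the other cells, and for Cst3, a protease inhibitor, the reverse held. This split leans as the whole lists do. Over all genes, 21.9% were higher and 14.4% lower in the control cluster, against 5.33% and 29.8% in the FGF2 cluster. Tnc, the matrix protein tenascin C, was at 67.2% of the control cluster against 69.9%, and at 25.8% of the FGF2 cluster against 88.8%. Axl, a receptor tyrosine kinase, was at 82.8% against 75.5% and at 25.8% against 73.3%. S100a4, a calcium-binding protein, was at 79.3% against 51.2% and at 25.8% against 63.3%. Ltbp1, which binds latent TGF-beta, was at 48.3% against 17.9% and at 6.5% against 49.4%. In these 4 genes the share was smaller in the FGF2 cluster, and in Tnc, S100a4 and Ltbp1 the share in the other cells was larger with FGF2.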

How the data were processed

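Single cells of 1 control and 1 FGF2 organoid library were captured by a 10x droplet method per the labels' protocols, and Cell Ranger 4.0 and mm10 were used per the submitters' processing notes. How cells were filtered, doublets treated, values normalized and clusters formed is not given in the sources used here. Deposited by the authors were 3 tables for the whole series, each comparing clusters with the other cells. Per the file headers they hold a log ratio of averages, 2 fractions of cells and p-values. The log ratios deposited by the authors were read as natural log, from the values: for genes with a share of 0 in several clusters, the average of the other cells came out alike with a median coefficient of variation of 0.00169% (control) and 0.0030% (FGF2), against 0.0488% and 0.0334% with base 2. The averages carry an offset of 1, so the ratio of a low gene is understated. The fractions deposited by the authors were printed as percentages. The deposited p-values come from cells of 1 library and were used only to describe which genes are listed. The integrated table's differences are of batch-integrated values.

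Each cluster's part of all cells was recovered by least squares with Python 3.11.15, pandas 2.3.3 and numpy 2.4.6 from genes listed for at least 2 clusters (2077 control and 1490 FGF2 genes), and the recovery was tested on simulated data. No test was made between libraries. Named genes were the 15 highest and 15 lowest log ratios of each cluster, the 15 highest in both, the 15 with the largest ratio of shares (0.1 points added to each), up to 12 of opposite direction, the 15 each way with the largest difference in share, and all listed members of 27 gene lists. Genes named outside this rule are marked as such or illustrate a count. The members and lists were chosen with earlier results of these data known. The share of a list that was listed higher or lower can be read against the share of all genes, given with the first counts. That reading is limited for genes high in the cluster alone, which enter a table only through it. Promoter sequences came from RefSeq, build GRCm38.p6. Alternatives were other limits on the log ratio, the share and the difference in share, and other fits of the cluster parts. Results for some genes are not reported here.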

Additional observations from a re-analysis of the deposited data

Results flagged for a closer look

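Of the 24 genes with opposite signs in the 2 libraries, the 12 with the largest smaller log ratio in size are given here, as the rule for named genes sets that limit. In these 12 the control cluster was above and the FGF2 cluster below the other cells. The lists lean the same way as a whole, with 21.9% of all genes higher in the control cluster and 29.8% lower in the FGF2 cluster. None of these differences was tested, and each library is 1 sample. The values are the log ratio in the FGF2 cluster minus that in the control cluster, on the natural log scale, from the authors' deposited table. The difference was -1.91 for Ccnd1 (cyclin D1) and -2.03 for Tnc (tenascin C). It was -1.31 for Rarres2 (the adipokine chemerin) and -1.39 for S100a4. Axl, a receptor kinase, had -1.08 and Ltbp1, a binder of latent TGF-beta, -1.06. Capg, an actin capping protein, had -0.93 and Hbegf, an EGF receptor ligand, -0.84. The mitochondrial gene mt-Nd3 had -0.73 and Tpbg, a membrane glycoprotein, -0.92. Furin, a proprotein convertase, had -0.67 and Xiap, an inhibitor of apoptosis, -0.70. In all 12 the share of cells was smaller in the FGF2 cluster than in the control cluster. In the other cells it was larger with FGF2 for 11 of the 12, Axl being the exception (75.5% and 73.3%).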

How the results depend on the processing

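Of 32 alternatives, 15 kept a value near the main one, 17 moved it and 0 reversed it. A stricter log ratio of 0.5 left 367 of 967 genes higher and 264 of 637 lower in the control cluster, 291 of 910 lower in the FGF2 cluster, and 120 of 360 lower in both. A log ratio of 1 left 97 higher and 60 lower in the control cluster, 60 higher and 57 lower in the FGF2 cluster, and 42 higher and 20 lower in both. With a larger share of at least 50%, 97 genes remained higher in the FGF2 cluster and 72 in both. For differences in share, a rule of 40 points gave 2 larger and 49 smaller in the FGF2 cluster, a rule of 15 points gave 207 smaller, and a ratio of 1.5-fold gave 38 larger and 219 smaller. With the difference of the other cells taken off, 7 were larger and 107 smaller. The parts of all cells, 1.15% and 0.307%, moved by less than 5% of their value under every other fit tried. The lists hold only genes that passed the authors' limits, in clusters of unknown depth per cell, and the FGF2 cluster was the smaller, so the lengths of the lists do not compare the clusters' expression. No paired analysis was possible because each group has 1 library.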

Other observations

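Further genes of the control cluster's list had small shares elsewhere in the control library. Slc35f1, a solute carrier, was at 70.7% of the cluster against 0.7% of the other cells. Ttyh1, a glial membrane protein, was at 72.4% against 0.3%. Gpr17, a receptor known from oligodendrocyte precursors, was at 39.7% against 0.2%. Plxnb3, a semaphorin receptor, was at 43.1% against 0.1%, and Reln, the secreted protein reelin, at 29.3% against 0.1%. None of these 5 was listed for the FGF2 cluster. Genes shared by both clusters with small shares elsewhere were Mlip, a lamin-interacting protein (56.9% and 25.8%, against 0.3% and 0.1%), Tspan15, a tetraspanin (63.8% and 38.7%, against 1.6% and 0.4%), and the predicted gene Gm12688 (63.8% and 32.3%, against 0.2% and 0.0%).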
